A study of Homo sapiens with 8 samples.

Results

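The serine and one-carbon folate enzymes examined here are 10 genes, PHGDH, PSAT1, PSPH, SHMT1, SHMT2, MTHFD1, MTHFD2, MTHFD1L, MTHFD2L and ALDH1L2. The rule takes them by name and uses no measured value, but the list was chosen with earlier results of these data known. All 10 are among the 25369 genes listed in the deposited expression table. RNA was sequenced from EPC2-hTERT cells, a telomerase-immortalized line of human esophageal keratinocytes with genotype WT in the labels, so every culture derives from 1 line. The cells were stratified on membranes at an air-liquid interface. Calcium was at 1.8 mM over 5 days, and exposure to air lasted 4 days. The medium held the growth factor EGF (1 ng/ml) and a pituitary extract (50 µg/ml). These settings were the same for all 8 libraries, so their part in the response cannot be tested here. In the 18 h before harvest the cells were given DMSO vehicle (4 libraries) or 1 mM dimethyloxalylglycine (DMOG, 4 libraries). DMOG mimics 2-oxoglutarate and blocks the prolyl hydroxylases that mark the alpha subunits of hypoxia-inducible factor (HIF) for destruction. It also blocks other enzymes that use 2-oxoglutarate. Whether the replicates were separate cultures is not stated in the labels, so every p-value reflects the spread between these libraries alone, and that spread may be technical.

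Cells make serine from the glycolytic intermediate 3-phosphoglycerate in a chain of reactions run by PHGDH (oxidation), PSAT1 (transamination) and PSPH (removal of phosphate). Serine hydroxymethyltransferases then pass a carbon from serine to tetrahydrofolate and leave glycine, SHMT2 mainly in mitochondria and SHMT1 in the cytosol. In mitochondria MTHFD2 or MTHFD2L oxidizes the carbon, MTHFD1L releases it as formate, and ALDH1L2 can burn it to CO2 with formation of NADPH. In the cytosol the single trifunctional protein MTHFD1 takes formate back up for purine and thymidylate synthesis, and ALDH1L1 is the counterpart of ALDH1L2. Several of these genes are known targets of the transcription factor ATF4, which responds to amino acid shortage and other stress.

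Levels are RPKM, reads per kilobase of gene length scaled to the reads in genes of the library, which allows genes to be compared with each other. Libraries held 31245695 to 39931833 reads in genes. DMOG replicate 2 stood apart from the other DMOG libraries and near the vehicle libraries. CA9, a carbonic anhydrase induced by HIF, was at 25.2, 2.56, 9.97 and 57.5 RPKM in DMOG replicates 1 to 4 against 0.129 to 1.29 RPKM in vehicle. ENO2, a glycolytic enolase induced by HIF, was at 70.2, 1.93, 23.7 and 157 RPKM in the same DMOG libraries and at 0.795 to 1.91 RPKM in vehicle. The authors' own comparison used replicates 1, 3 and 4 of each group, a choice that the sources used here do not explain. Results are therefore given over all 8 libraries and over those 6, and the choice of the 6 may itself rest on measured values. All 10 squamous epithelial markers checked were at 1 RPKM or more in every library. Of 5 fibroblast markers 0 reached 1 RPKM in any library (DCN and LUM were at 0 in all). Of 5 immune markers 1 did, CD68, at 42.7 to 93.1 RPKM in every library, with MS4A1 at 0 in all. Of 4 endothelial markers 1 did, VWF, at 0.862 to 1.95 RPKM, with CDH5 at 0 in all. The part of these markers in the results was not tested.

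All 10 enzymes were lower in DMOG replicates 1, 3 and 4 than in any vehicle library, and DMOG replicate 2 lay inside the vehicle range for 8 of them. The serine synthesis enzyme PSAT1 and the mitochondrial enzyme ALDH1L2 were furthest down, 22.3-fold and 19.2-fold on the means of RPKM as deposited over replicates 1, 3 and 4 of each group. The serine hydroxymethyltransferases SHMT1 (2.29-fold) and SHMT2 (2.30-fold) were down the least. A gene was tested where 4 or more libraries reached 1 RPKM, and of these 11122 genes 36.3% likewise had DMOG replicates 1, 3 and 4 below every vehicle library. After division by median-ratio factors, which scale each library to the typical gene, the 10 enzymes still had this order and the share of all tested genes was 22.1%. Without these factors the median log2 fold change of all tested genes over replicates 1, 3 and 4 was -0.26, so the folds above are larger than scaled ones.

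**Figure D1:**
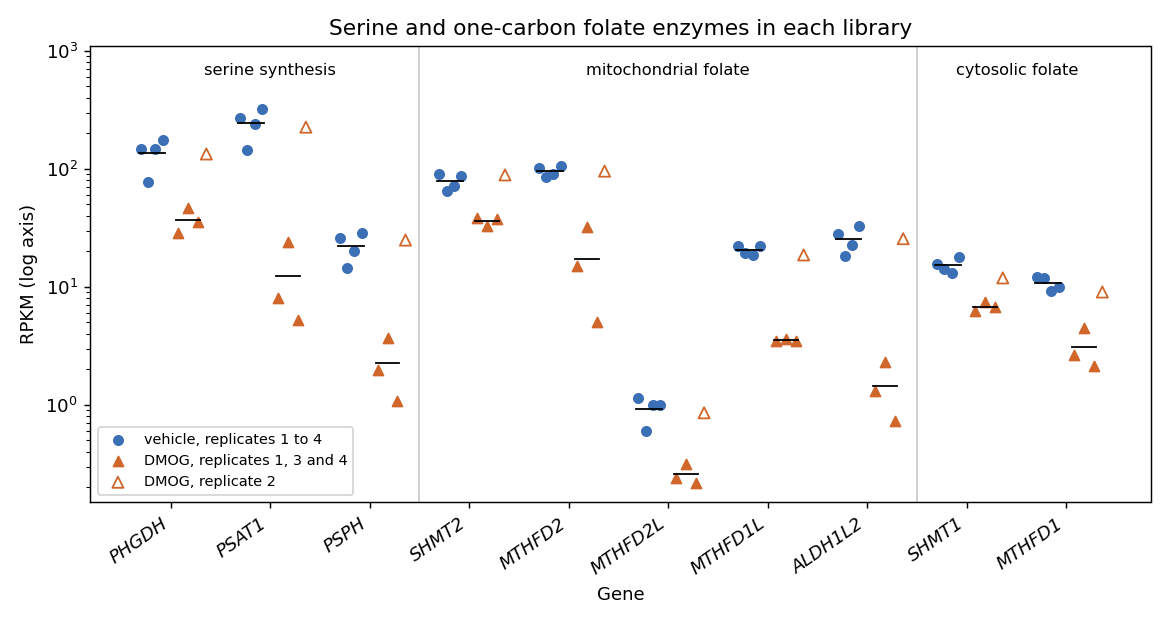
RPKM (log axis) of the 10 enzymes in each library, grouped by role. Circles are the 4 vehicle libraries, filled triangles DMOG replicates 1, 3 and 4, open triangles DMOG replicate 2, and bars the mean of the filled symbols. The filled triangles lie below every circle for all 10 genes, and the open triangle lies among the circles for 8.

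PHGDH, which catalyses the entry step of serine synthesis, lies at chr1:120254419-120286849 (hg19, plus strand). It was at 147, 76.7, 146 and 176 RPKM in vehicle replicates 1 to 4 and at 28.5, 134, 46.9 and 35.7 RPKM in DMOG replicates 1 to 4. Vehicle replicate 2 was the lowest vehicle library, and DMOG replicate 2 stood above it. Over replicates 1, 3 and 4 the mean fell from 156 ± 16.8 to 37.0 ± 9.30 RPKM (SD, n = 3 each), and the log2 fold change of scaled RPKM + 1 was -1.77 ± 0.18 (SE, limma adjusted p = 0.00355).

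PSAT1, the aminotransferase of the pathway, lies at chr9:80911991-80945009 (hg19, plus strand) and was the most abundant of the 10 in vehicle, at 267, 146, 240 and 320 RPKM. DMOG replicates 1 to 4 had 7.99, 226, 23.9 and 5.21 RPKM. Replicate 4 thus held 2.14% of the vehicle mean and replicate 2 held 92.8%. The fall over replicates 1, 3 and 4, from 276 ± 40.8 to 12.4 ± 10.1 RPKM (SD, n = 3 each), was 22.3-fold on the means, and the log2 fold change of -4.33 ± 0.45 was the lowest of the 11122 genes tested (limma adjusted p = 0.00363).

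PSPH, the phosphatase that yields free serine, lies at chr7:56078744-56119268 (hg19, minus strand). Its vehicle libraries held 25.8, 14.5, 20.1 and 28.3 RPKM and its DMOG libraries 1.97, 24.9, 3.71 and 1.07 RPKM. The DMOG libraries had the same order as for PSAT1, with replicate 4 lowest, then 1, then 3. The log2 fold change over replicates 1, 3 and 4 was -2.81 ± 0.28 (SE, n = 3 each, limma adjusted p = 0.00316). All 3 serine synthesis enzymes were thus called lower over replicates 1, 3 and 4, against 16.1% of all tested genes.

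SHMT2, which moves the carbon of serine onto mitochondrial folate, lies at chr12:57623356-57628718 (hg19, plus strand). It was at 90.4, 65.1, 71.9 and 87.3 RPKM in vehicle and at 38.5, 88.8, 32.6 and 37.7 RPKM in DMOG. DMOG replicates 1, 3 and 4 were close to each other, within 1.18-fold, at 48.9%, 41.4% and 47.9% of the vehicle mean. On the log2 scale the fold change was -0.88 ± 0.13 (SE, n = 3 each, limma adjusted p = 0.00717). The end of SHMT2 overlaps NDUFA4L2 on the other strand by 33 bases. NDUFA4L2 was at 7.25 to 23.9 RPKM in vehicle and at 183, 48.1, 87.8 and 311 RPKM in DMOG, and how the counting treated strand is not known here, so reads in those bases cannot be assigned.

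MTHFD2, the mitochondrial dehydrogenase and cyclohydrolase, lies at chr2:74425690-74442424 (hg19, plus strand). Vehicle libraries were near each other at 101, 84.7, 90.7 and 106 RPKM. DMOG libraries held 14.9, 95.6, 31.8 and 5.01 RPKM, and replicates 1, 3 and 4 spanned 6.35-fold, the widest span of the 10 enzymes. A log2 fold change of -2.48 ± 0.52 (SE, n = 3 each) passed with a limma adjusted p of 0.0156. This was the 1 enzyme whose call was lost on leaving out single libraries, where the limma adjusted p was 0.0573 without DMOG replicate 1, 0.0580 without vehicle replicate 4 and 0.0586 without vehicle replicate 1.

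MTHFD2L, the related dehydrogenase found at chr4:75023829-75168814 (hg19, plus strand), was the scarcest. It was at 1.14, 0.597, 0.987 and 0.995 RPKM in vehicle (49 to 93 reads) and at 0.241, 0.856, 0.315 and 0.217 RPKM in DMOG (69 reads in replicate 2, 16 to 24 in the others). With 1 library at 1 RPKM or more it did not pass the filter on low values. In a fit without that filter its log2 fold change over replicates 1, 3 and 4 was -0.59 ± 0.07 (SE, n = 3 each, limma adjusted p = 0.0144). Adding 0.1 in place of 1 before the logarithm gave -1.43 ± 0.18 (limma adjusted p = 0.0135), since an added 1 is large beside levels this low.

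MTHFD1L, which releases the carbon as formate, lies at chr6:151186815-151423023 (hg19, plus strand). It was at 22.2, 19.3, 18.5 and 22.2 RPKM in vehicle and at 3.48, 18.6, 3.61 and 3.48 RPKM in DMOG. Replicates 1, 3 and 4 of DMOG lay within 1.04-fold of each other, the narrowest span of the 10, although the same libraries differed 6.35-fold for MTHFD2. The log2 fold change of -2.01 ± 0.10 (SE, n = 3 each) had the smallest adjusted p of the members, 0.000906 by limma.

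ALDH1L2, the mitochondrial formyltetrahydrofolate dehydrogenase, lies at chr12:105413562-105478341 (hg19, minus strand). Its vehicle libraries held 28.1, 18.2, 22.5 and 33.0 RPKM and its DMOG libraries 1.31, 25.6, 2.33 and 0.726 RPKM. Replicates 1, 3 and 4 were at 5.13%, 9.14% and 2.85% of the vehicle mean, and replicate 2 at 100%. Its log2 fold change was -3.36 ± 0.24 (SE, n = 3 each, limma adjusted p = 0.00186), the fifth lowest of all genes tested.

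SHMT1, the cytosolic hydroxymethyltransferase, lies at chr17:18231174-18266877 (hg19, minus strand). It was at 15.5, 14.2, 13.2 and 18.0 RPKM in vehicle and at 6.22, 11.9, 7.46 and 6.71 RPKM in DMOG. All 4 DMOG libraries lay below all 4 vehicle libraries, replicate 2 included at 78.2% of the vehicle mean. The log2 fold change over replicates 1, 3 and 4 was -0.80 ± 0.13 (SE, n = 3 each, limma adjusted p = 0.00794). SHMT1 overlaps SMCR8 on the other strand by 197 bases, and SMCR8 was at 6.56 to 9.58 RPKM over the 8 libraries.

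MTHFD1, the cytosolic trifunctional enzyme, lies at chr14:64854759-64926725 (hg19, plus strand). It was at 12.0, 11.8, 9.16 and 10.05 RPKM in vehicle and at 2.63, 9.04, 4.48 and 2.13 RPKM in DMOG. All DMOG libraries were again below all vehicle libraries, although replicate 2 fell just under the lowest vehicle library. After scaling, DMOG replicate 2 (8.54) was just above vehicle replicate 3 (8.52), while for SHMT1 it remained below (11.2 against a lowest vehicle value of 12.3). The log2 fold change over replicates 1, 3 and 4 was -1.27 ± 0.20 (SE, n = 3 each, limma adjusted p = 0.00836).

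SHMT1 and MTHFD1 were thus the 2 of 10 enzymes whose groups of 4 did not overlap in RPKM as deposited, against 12.8% of all tested genes. With median-ratio factors SHMT1 alone had this separation, against 7.33% of tested genes.

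Over replicates 1, 3 and 4, all 9 enzymes that passed the filter were called lower (limma adjusted p under 0.05) and none higher, against 16.1% of the 11122 tested genes called lower and 13.7% called higher. The median log2 fold change of the 9 was -2.01, and that of all tested genes was -0.00. Using RPKM as deposited moved the median of all tested genes to -0.26 and the counts from 1526 higher and 1792 lower to 682 higher and 3836 lower, and all 9 enzymes were still called lower. Ranked from the lowest log2 fold change among the 11122 genes, PSAT1 was number 1, ALDH1L2 5, PSPH 11, MTHFD2 19, MTHFD1L 32, PHGDH 46, MTHFD1 169, SHMT2 544 and SHMT1 719. Since the enzymes were chosen with earlier results of these data known, their calls and ranks are a description. In the authors' deposited table of their comparison, all 10 enzymes were lower at an adjusted p under 0.05, against 17.6% of its 13424 genes, by 1.85-fold (SHMT1) to 18.3-fold (PSAT1).

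Over all 8 libraries, with RPKM as deposited, limma called 0 of the 9 enzymes, as it did 0 of the 11122 genes in either direction. Their log2 fold changes of RPKM + 1 ran from -3.31 ± 0.96 for PSAT1 to -0.77 ± 0.29 for SHMT2 (SE, n = 4 each), with limma adjusted p from 0.0879 to 0.103. At an unadjusted p under 0.05, 9 of 9 enzymes and 29.2% of all tested genes were lower, where the median log2 fold change of all tested genes was -0.18. With median-ratio factors over 8 libraries 0 genes were called. At an unadjusted p under 0.05 all 9 enzymes were then lower, with 1813 of the 11122 genes lower and 1556 higher. With RPKM as deposited, leaving out DMOG replicate 2 alone gave limma adjusted p from 0.000159 to 0.00360 and called all 9 lower. It also called 32.2% of tested genes lower, at a median log2 fold change of -0.23 over all tested genes. Leaving out any other library called none.

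**Figure D2:**
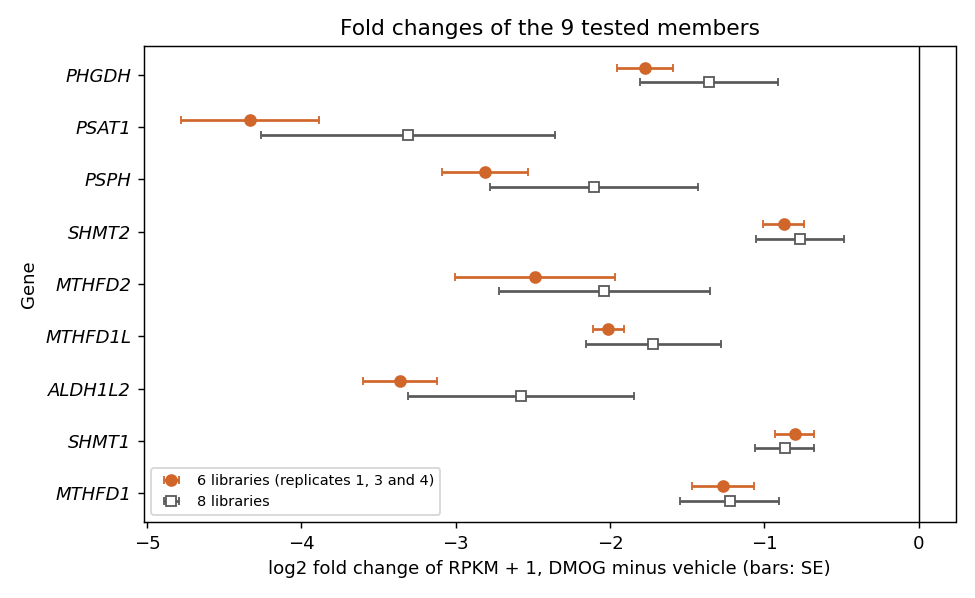
Log2 fold change of RPKM + 1, DMOG minus vehicle, for the 9 enzymes that passed the filter. Filled circles are replicates 1, 3 and 4 of each group with median-ratio factors, open squares all 8 libraries with RPKM as deposited, and bars the SE. All points lie below 0, with the lowest at -4.33 for PSAT1 and narrow bars for MTHFD1L in the 6 libraries.

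The 10 enzymes also changed places among themselves. In vehicle the order of mean RPKM was PSAT1 (243), PHGDH (136), MTHFD2 (95.6), SHMT2 (78.7), ALDH1L2 (25.5), PSPH (22.2), MTHFD1L (20.6), SHMT1 (15.2), MTHFD1 (10.7) and MTHFD2L (0.930). Neighbours from PSAT1 down to SHMT2 overlapped in their range over the 4 libraries, as did those from ALDH1L2 to MTHFD1L, and the other neighbours did not. In DMOG replicates 1, 3 and 4 PHGDH (37.0 RPKM) and SHMT2 (36.2 RPKM) came first with overlapping ranges. MTHFD2 (17.2 RPKM), PSAT1 (12.4 RPKM) and SHMT1 (6.80 RPKM) followed, also with overlaps, and ALDH1L2 (1.45 RPKM) had dropped to the ninth place, behind MTHFD1L, MTHFD1 and PSPH. DMOG replicate 2 had the vehicle order throughout.

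The DMOG libraries were themselves graded in RPKM as deposited. For 7 of 10 enzymes (PSAT1, PSPH, MTHFD2, MTHFD2L, MTHFD1L, ALDH1L2 and MTHFD1) their order from lowest to highest was replicate 4, 1, 3, 2, the reverse of the order of ENO2, although for MTHFD1L replicates 4 and 1 were almost equal (3.477 and 3.479 RPKM). PHGDH and SHMT1 were lowest in replicate 1, and SHMT2 was lowest in replicate 3. The median-ratio factors over 8 libraries had the order 4, 1, 3, 2 as well (0.849, 0.917, 0.932 and 1.06). MTHFD1L did not keep that order after division by these factors. How many of all tested genes have it was not counted. The order rests on 4 libraries, was noticed after the values were seen and was not tested.

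The mitochondrial and cytosolic folate enzymes were compared as ratios within a library, which do not depend on library scaling. The 5 pairs were formed by reaction, and none passed an exact two-sided permutation test between the groups of 4, whose smallest possible p is 0.0286. A p above the threshold does not show that both compartments fell alike.

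SHMT2 over SHMT1 was 5.83, 4.58, 5.45 and 4.85 in vehicle replicates 1 to 4 and 6.19, 7.46, 4.37 and 5.61 in DMOG replicates 1 to 4. The groups overlapped, and the mean log2 ratio was 2.37 ± 0.16 in vehicle and 2.54 ± 0.32 in DMOG (SD, n = 4 each, difference 0.17, exact permutation p = 0.400, adjusted over the 5 pairs 0.500). Without replicate 2 of either group the difference was -0.01, so the sign of this small difference was not stable.

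MTHFD2 over MTHFD1 was 8.42, 7.20, 9.91 and 10.5 in vehicle and 5.66, 10.6, 7.11 and 2.36 in DMOG. DMOG replicates 1, 3 and 4 were all below the vehicle libraries, and replicate 2 was above them. The log2 difference was -0.66 over 8 libraries (exact permutation p = 0.200, adjusted 0.333) and -1.07 over replicates 1, 3 and 4, where 3 against 3 libraries cannot give a p below 0.1.

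MTHFD1L over MTHFD1 was 1.85, 1.64, 2.02 and 2.21 in vehicle and 1.32, 2.06, 0.807 and 1.64 in DMOG. Again DMOG replicates 1, 3 and 4 were below every vehicle library, replicate 4 by a small margin (1.636 against 1.643). The log2 difference was -0.48 over 8 libraries (exact permutation p = 0.171, adjusted 0.333) and -0.75 over replicates 1, 3 and 4.

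MTHFD2L over MTHFD1 was 0.0949, 0.0507, 0.108 and 0.0991 in vehicle and 0.0914, 0.0947, 0.0703 and 0.102 in DMOG, with overlapping groups. Their log2 difference was 0.07 (exact permutation p = 0.914, adjusted 0.914) and turned to -0.21 over replicates 1, 3 and 4.

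The widest separation was between ALDH1L2 and ALDH1L1. Their ratio was 30.2, 24.7, 24.6 and 56.5 in vehicle and 1.54, 35.7, 2.17 and 1.59 in DMOG. The log2 difference was -3.10 over 8 libraries (exact permutation p = 0.114, adjusted 0.333) and -4.32 over replicates 1, 3 and 4. ALDH1L1 itself was low, at 0.931, 0.736, 0.912 and 0.585 RPKM in vehicle and 0.850, 0.716, 1.07 and 0.455 RPKM in DMOG, with overlapping groups. It did not pass the filter, and without the filter its log2 fold change over replicates 1, 3 and 4 was 0.10 ± 0.16 (SE, n = 3 each, limma adjusted p = 0.693).

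**Figure D3:**
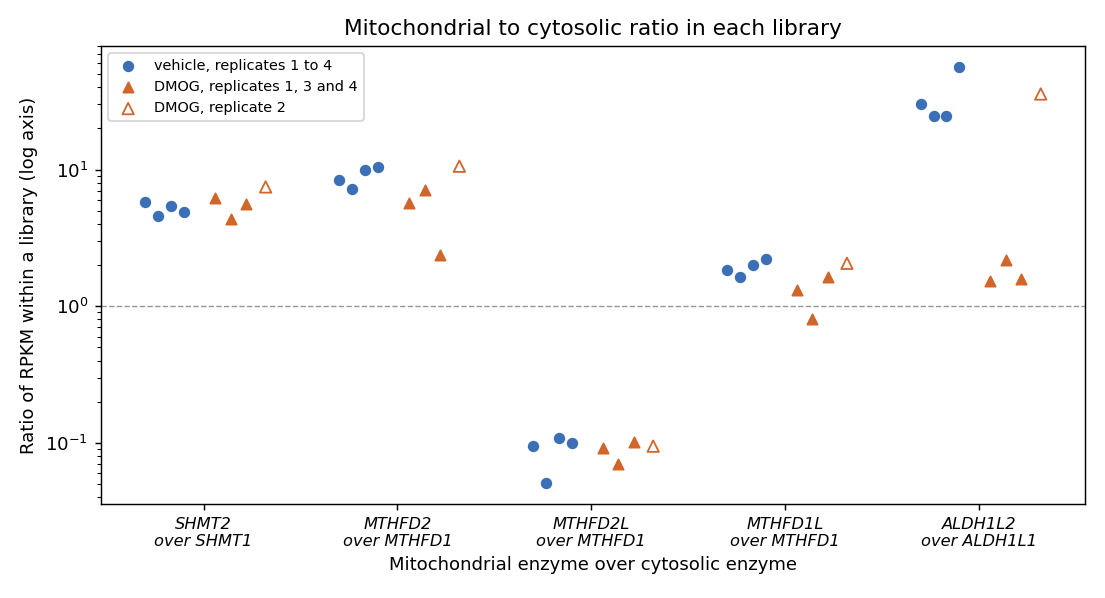
Ratio of the RPKM of a mitochondrial enzyme to that of its cytosolic counterpart within each library (log axis). Circles are vehicle libraries, filled triangles DMOG replicates 1, 3 and 4, and open triangles DMOG replicate 2. ALDH1L2 over ALDH1L1 dropped from 24.6 or more to 2.17 or less in the filled triangles, while SHMT2 over SHMT1 overlapped between groups.

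Of 42 other genes of folate, glycine, serine and methionine metabolism, 30 passed the filter. Over replicates 1, 3 and 4, 13 were called lower, 1 was called higher and 16 were not called, with a median log2 fold change of -0.44. Of all 11122 tested genes 16.1% were called lower and 13.7% higher. The 14 pathway calls became 5 without vehicle replicate 1, 5 without vehicle replicate 4 and 6 without DMOG replicate 1. Calls over all tested genes fell too, from 1526 higher and 1792 lower. They became 379 and 539, 462 and 586, and 486 and 607 in the same fits. Over all 8 libraries 0 of the 30 were called, and 17 were lower at an unadjusted p under 0.05, against 29.2% of all tested genes.

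The steps that turn homocysteine into cysteine, and use serine to do so, had the lowest values of the list. CTH, cystathionine gamma-lyase, was at 29.7, 18.5, 27.0 and 29.9 RPKM in vehicle and 2.18, 30.5, 5.27 and 0.987 RPKM in DMOG, and fell by 2.88 ± 0.37 on the log2 scale (SE, n = 3 each, limma adjusted p = 0.00534). CBS, cystathionine beta-synthase, was at 50.4, 25.4, 39.5 and 50.1 RPKM in vehicle and 4.19, 45.8, 6.34 and 4.18 RPKM in DMOG, and fell by 2.75 ± 0.16 (limma adjusted p = 0.000931). DMOG replicate 2 was above 2 or more vehicle libraries for both genes. In the methionine cycle MTRR, which reactivates methionine synthase, fell by 0.89 ± 0.21 (limma adjusted p = 0.0240). Of 9 tested genes of the methionine and transsulfuration group 4 were called lower, against 16.1% of all tested genes. The MTRR call was lost without vehicle replicate 1, 3 or 4 or DMOG replicate 1 (limma adjusted p 0.0662 to 0.0846), and without the filter on low values (0.0525).

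Of 3 tested neutral amino acid carriers that take up serine 2 were called lower, against 16.1% of all tested genes. SLC1A4 fell by 1.87 ± 0.23 (limma adjusted p = 0.00487), and SLC1A5, mainly a glutamine carrier, fell by 1.76 ± 0.33 (limma adjusted p = 0.0116). The SLC1A5 call was lost without vehicle replicate 1 (limma adjusted p = 0.0512). SLC38A2, named after its values were seen, was not called, with a log2 fold change of -0.51 ± 0.38 (limma adjusted p = 0.337) and overlapping groups, and was called lower with the replicate block (limma adjusted p = 0.0435). SDSL, a serine dehydratase-like protein, fell by 1.01 ± 0.15 (limma adjusted p = 0.00664). SFXN3, a mitochondrial sideroflexin of the family that carries serine into mitochondria, was the 1 gene called higher. It was at 8.19, 7.31, 6.82 and 7.06 RPKM in vehicle and 15.5, 7.24, 10.3 and 17.9 RPKM in DMOG, a log2 fold change of 1.14 ± 0.22 (SE, n = 3 each, limma adjusted p = 0.0121). The SFXN3 call was lost without vehicle replicate 4 (limma adjusted p = 0.0519) or DMOG replicate 1 (0.0532). SFXN1 of the same family, named after its values were seen, was not called (0.52 ± 0.19, limma adjusted p = 0.0788), with overlapping groups. It was called higher with the replicate block (limma adjusted p = 0.0187) and in the authors' comparison at an adjusted p under 0.05.

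The purine enzymes that spend formyl folate were called lower over replicates 1, 3 and 4. ATIC fell by 1.40 ± 0.36 (limma adjusted p = 0.0286) and GART fell by 1.25 ± 0.30 (limma adjusted p = 0.0246). Both calls were lost without vehicle replicate 1, 3 or 4 or DMOG replicate 1, with a limma adjusted p of 0.0771 to 0.0924 for ATIC and 0.0671 to 0.0818 for GART. They were also lost without the filter on low values (limma adjusted p 0.0669 for ATIC and 0.0586 for GART). Of the 7 tested genes of folate reduction and other cytosolic steps 4 were called lower, as were both tested genes of glycine cleavage, against 16.1% of all tested genes. Of the 4 tested genes of folate uptake and storage 0 were called. Calls over all tested genes fell without DMOG replicate 1, or without vehicle replicate 1 or 4. In those fits 0 genes of folate reduction and 0 of glycine cleavage were called. Without vehicle replicate 3 those counts were 3 and 0. Without the filter on low values they were 2 of 9 and 2 of 4, against 7.46% of all genes called lower in that fit. FTCD and SDS were listed at 0 in every library.

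**Figure D4:**
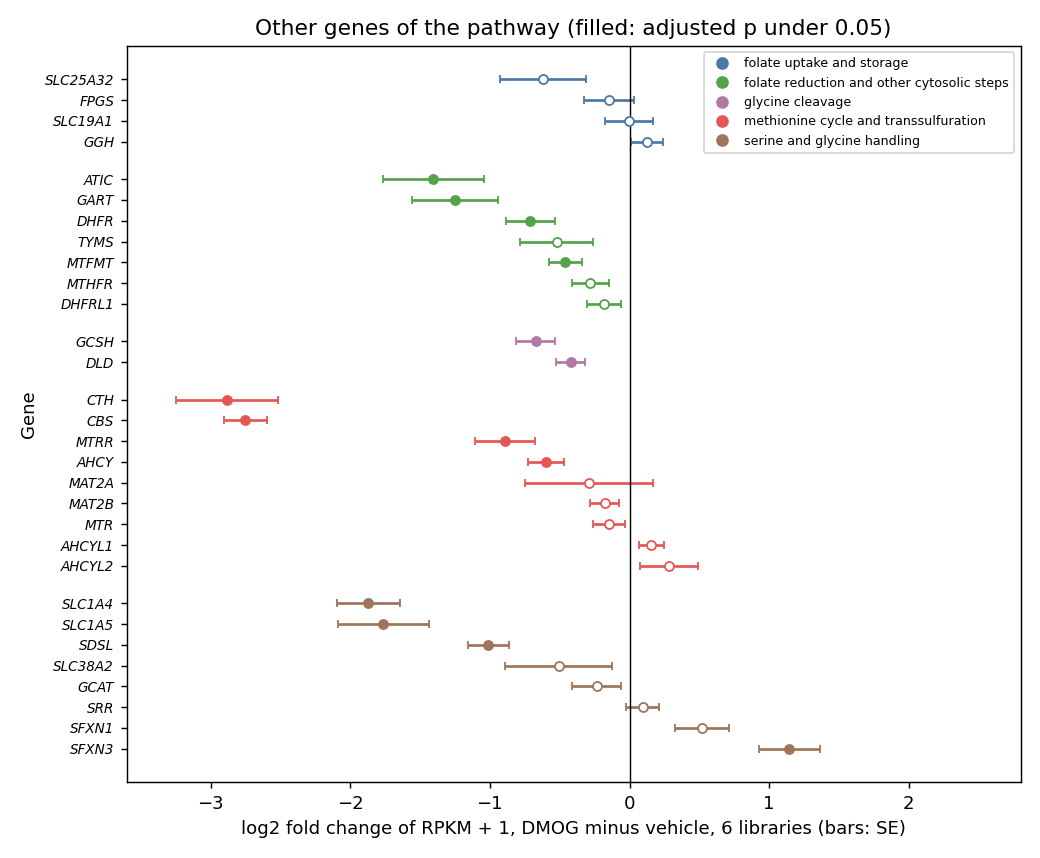
Log2 fold change of RPKM + 1 over replicates 1, 3 and 4 (DMOG minus vehicle) of the 30 other pathway genes that passed the filter, in 5 groups marked by colour. Filled points have a limma adjusted p under 0.05, open points do not, and bars are the SE. CTH and CBS lie furthest to the left at -2.88 and -2.75, and SFXN3 lies to the right at 1.14.

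Markers of dividing cells were lower in DMOG replicates 1, 3 and 4 as a sum, but not each on its own. The 10 markers summed to 60.4, 65.5, 36.7 and 41.9 RPKM in vehicle and 25.97, 51.3, 24.5 and 17.7 RPKM in DMOG, and 4 of 10 were at 1 RPKM or more in every library. PCNA held the largest part of this sum in every library. It was at 31.2, 26.5, 24.97 and 28.5 RPKM in vehicle and 11.8, 24.4, 13.02 and 7.44 RPKM in DMOG. MCM5 was at 5.82, 11.3, 4.98 and 3.61 RPKM in vehicle and 6.09, 5.25, 6.34 and 5.41 RPKM in DMOG. Every DMOG library thus lay inside the vehicle range of MCM5. MKI67, which marks proliferation, was at 1.25, 1.72, 0.116 and 0.0752 RPKM in vehicle and 0.313, 1.11, 0.0371 and 0.00256 RPKM in DMOG. Between the same vehicle libraries the 10 enzymes differed by 1.20-fold (MTHFD1L) to 2.29-fold (PHGDH). Whether the levels of these markers have a part in the result was not tested. In bulk RNA fewer cells of a type and less RNA per cell cannot be told apart.

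For PSAT1 and MTHFD2 the genes with the most similar profile were sought among the 11121 other tested genes, by the root mean square difference of log2(RPKM + 1), centred on the vehicle mean, over 8 libraries. For PSAT1 these were GDF15 (0.39), PCK2 (0.43), ALDH1L2 (0.66), FAM129A (0.67) and STC2 (0.68). GDF15, a secreted stress cytokine, was at 85.9, 37.6, 66.5 and 94.4 RPKM in vehicle and 2.66, 58.4, 4.95 and 2.37 RPKM in DMOG, and thus shared the low vehicle replicate 2 with PSAT1. For MTHFD2 they were SLC7A11 (0.20), GOT1 (0.24), GARS (0.27), AARS (0.30) and CTH (0.31). SLC7A11, the cystine carrier, was at 19.1, 24.9, 18.9 and 24.6 RPKM in vehicle and 2.03, 19.4, 7.02 and 0.391 RPKM in DMOG. All these genes share the libraries and their depth with the member, so likeness here is a description.

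Since the members moved together, their promoter windows were read from RefSeq (GRCh38.p14, 250 bases before to 50 after each start), where 7 of 10 members had 11 windows. Both strands were searched for TGATGNAA, the ATF4-C/EBP element, for ACGTG and GCGTG, the cores of the hypoxia response element, and for CACGTG, the E-box, which contains ACGTG on both strands. TGATGNAA was found in 1 member, MTHFD1L, and in 4.46% of the 27305 genes with a window (3.62% of all 35116 windows). ACGTG was found in 3 members (MTHFD2, MTHFD1L and MTHFD1) and 24.9% of genes (21.4% of windows). GCGTG was found in 4 members (PSAT1, MTHFD2, MTHFD2L and MTHFD1L) and 40.6% of genes (36.5% of windows), and CACGTG in 2 members (MTHFD1L and MTHFD1) and 8.77% of genes (7.26% of windows). Members with several starts have more windows in which a match can fall. The windows of PHGDH and SHMT1 held none of these letters. As examples from mitochondrial and cytosolic enzymes, the ATF4-C/EBP element, both E-boxes and the MTHFD2 core nearest its start are printed below, and the other ACGTG and GCGTG matches are not. The motif is in capitals, 5′ to 3′ on the plus strand, which is the strand of all 3 genes.
MTHFD1L, ATF4-C/EBP element, chr6:150866346-150866375: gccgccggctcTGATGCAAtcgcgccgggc
MTHFD1L, E-box, chr6:150866320-150866349: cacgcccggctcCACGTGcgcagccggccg
MTHFD1, E-box, chr14:64388326-64388355: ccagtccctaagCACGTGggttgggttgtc
MTHFD2, hypoxia response element core, chr2:74198580-74198609: cgcagtataaccGCGTGgcccgcgcgcgcg
The ATF4-C/EBP element of MTHFD1L begins 129 bases before 1 of its 4 listed starts, 90 before another and 24 after another, and is not in the window of the other one. The E-box of MTHFD1 begins 15 bases before its start and the MTHFD2 core 23 before. A match in letters is a description and not a measured binding site, and no match says only that these letters are not in the window.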

How the data were processed

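RNA-seq of 8 libraries was analysed, 4 with DMSO vehicle and 4 with DMOG; groups and replicate numbers come from the labels. The members and the gene lists were chosen with earlier results of these data known. The authors deposited RPKM values for 25369 genes, in a table whose name says raw counts. The submitters' processing notes name HTSeq 0.6.1, TopHat2 2.0.13 and Bowtie2 2.2.3.0 among the tools, and both hg19 and hg38 as builds. Their roles, the strand setting and the treatment of reads with several matches are not given in the sources used here. RefSeq lists pseudogenes named after PSAT1 (4), MTHFD2 (7), PSPH, SHMT1 and MTHFD1 (1 each), so reads of these 5 genes could be shared with them. Multiplying RPKM by gene length gave whole reads for 100% of values within 0.01 reads, and 1 read was worth 0.0250 to 0.0320 RPM.

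The authors' deposited comparison holds, per the file headers, normalized group means (a signal), a fold ratio, its log2 value and p-values for 13424 genes. Its means were recovered from replicates 1, 3 and 4 of each group.

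The 11122 genes that reached 1 RPKM in 4 or more libraries were tested with limma-trend (limma 3.58.1, R 4.3.3, robust) on log2(RPKM + 1), two-sided, with Benjamini-Hochberg adjustment over all tested genes and a threshold of 0.05. RPKM were used as deposited over 8 libraries and divided by median-ratio factors over 6. These fold changes understate those of low genes. Ratios were tested by exact permutation of the samples. Same-numbered libraries deviated together in the 6 libraries (correlations 0.47, 0.40 and 0.34), and less evenly in all 8 (0.07, -0.02, 0.53 and 0.24). Whether the numbers pair the samples is not known here. The main fits were unpaired, with a replicate block as an alternative. Alternatives were other scaling, a pseudocount of 0.1, no filter, limma-voom on recovered reads, a replicate block and leaving out each library; the fit without filter and with a pseudocount of 0.1 was added after seeing the data. All 10 members, the called pathway genes (at most 8 per direction, by size of change) and the 5 most similar genes of PSAT1 and MTHFD2 were named by rule. The fits were tested on simulated data in which no library stood apart from its group. That test does not show how the fits treat a library such as DMOG replicate 2. Positions are hg19 from the RPKM table, and promoter windows are GRCh38.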

Additional observations from a re-analysis of the deposited data

Results flagged for a closer look

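In 30 groups of 4 libraries checked (the 10 enzymes and the 5 ratios in each treatment), 7 held a library far from the other 3, all of them DMOG replicate 2, where chance gives about 1 in 20 groups. The groups share libraries and are not independent. This library was at 226 RPKM for PSAT1, 24.9 RPKM for PSPH, 88.8 RPKM for SHMT2, 0.856 RPKM for MTHFD2L, 18.6 RPKM for MTHFD1L and 25.6 RPKM for ALDH1L2, each far above DMOG replicates 1, 3 and 4. The ratio of ALDH1L2 to ALDH1L1 was 35.7 there, against 2.17 or less in the other DMOG libraries.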

How the results depend on the processing

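Over 8 libraries, the number of enzymes called was 0 and became 9 without DMOG replicate 2 (range on leaving out 1 library 0 to 9), and that of other pathway genes went from 0 to 19 (range 0 to 19). Calls over all 11122 tested genes went from 0 to 747 higher and 3585 lower without DMOG replicate 2. Over replicates 1, 3 and 4, leaving out 1 library gave 8 to 9 enzymes and 5 to 17 other pathway genes, with 14 in the full comparison, 5 without vehicle replicate 1, 5 without vehicle replicate 4 and 6 without DMOG replicate 1. Calls over all tested genes also fell in each of these named fits. They rose from 1526 higher and 1792 lower to 2224 and 2527 without DMOG replicate 3, where 17 pathway genes were called. The enzymes' fold changes kept their sign in every alternative run. With the replicate block, that is with pairing by number, all 9 enzymes were called over 6 libraries (limma adjusted p 0.00488 to 0.0137) and 0 over 8 (0.118 to 0.145), and other pathway calls went from 1 higher and 13 lower to 2 higher and 15 lower. Over 6 libraries the block raised the calls over all tested genes too, to 2181 higher and 2337 lower. The log2 difference of SHMT2 over SHMT1 turned from 0.17 to -0.00794 over replicates 1, 3 and 4. That of MTHFD2L over MTHFD1 turned from 0.07 to -0.18 without vehicle replicate 2 and to -0.21 over replicates 1, 3 and 4. On leaving out 1 library it ran from -0.18 to 0.18, and over all 11 alternatives from -0.21 to 0.76. No ratio passed 0.05 in any alternative, but leaving out 1 library allows no exact permutation p below 0.0571, and 3 against 3 libraries none below 0.1, so these alternatives could not pass. The causes were not tested. Depth limits MTHFD2L most, with 16 to 93 reads per library.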
